A study of Mus musculus with 16 samples.

Results

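The 10 enzyme genes of triglyceride assembly followed here in mouse gonadal fat were Gpd1, Gpam, Gpat3, Agpat2, Agpat3, Lpin1, Mogat1, Mogat2, Dgat1 and Dgat2. They are 10 of the 24454 genes of the deposited count table, taken from it by gene symbol, and all 10 passed the filter on low counts that left 16682 genes for testing. The enzymes were picked for their function, but the set was chosen by a result as well: Mogat2 and Dgat2 were already known to be higher with SHU9119 after sham surgery. That comparison is therefore given below as a description, without a test.

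The 4 groups were VX_SHU (subdiaphragmatic vagotomy, sDVX, and SHU9119), VX_Veh (sDVX and vehicle), Sham_SHU (sham surgery and SHU9119) and Sham_Veh (sham surgery and vehicle), with 4 libraries each, written here with their replicate number. All mice were lean C57BL/6J males aged 16 weeks on chow; a pump delivered vehicle or SHU9119 (1 nmol per day) into the brain ventricles for 2 weeks, beginning 4 weeks after surgery, while every group was given the same calories. SHU9119 blocks melanocortin receptors, and sDVX cuts the vagus nerve below the diaphragm. The design asks whether blocking brain melanocortin receptors changes fat, and whether the vagus is needed for it. Separate mice are not stated for the libraries, so each p-value covers only the spread between libraries.

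Triglyceride is built by adding fatty acids to a glycerol backbone. In the glycerol phosphate route, glycerol 3-phosphate is acylated to lysophosphatidic acid and then to phosphatidic acid, a lipin removes the phosphate, and the resulting diacylglycerol is acylated to triglyceride. A shorter route starts from monoacylglycerol, which monoacylglycerol acyltransferases turn directly into diacylglycerol; it is best known from the small intestine, where Mogat2 rebuilds dietary fat. Fat cells store most of the triglyceride of the body and rely mainly on the glycerol phosphate route.

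On the mm10 build, Dgat2 lies on chromosome 7 from 99153663 to 99182713, and Mogat2 lies next to it from 99219084 to 99238611. The gap between them is 36.4 kb and holds no annotated gene. Agpat2 spans 26593057 to 26604417 on chromosome 2 and Mogat1 spans 78511060 to 78606964 on chromosome 1, while Gpd1 lies on chromosome 15 from 99717587 to 99725014. Tested genes with overlapping spans exist for Gpat3 (Abraxas1, over 200 bp) and Lpin1 (Ntsr2, over 461 bp), and the strand setting of the counting is not given in the sources used here, so reads of these overlaps could be shared.

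RefSeq promoter sequence of the GRCm38.p6 build (the same build as mm10) was at hand for 6 of the 10 genes. Agpat2 is shown as an enzyme gene that was higher in all SHU9119 than in all vehicle libraries after sDVX, and Mogat1 and Gpam as genes whose groups overlapped. Each run is the 250 bases before the annotated start, read 5′ to 3′ on the strand of the gene, for Agpat2 at chr2:26604418-26604667 (minus strand), for Mogat1 at chr1:78510810-78511059 (plus strand) and for Gpam at chr19:55127239-55127488 (minus strand). Capitals mark a match to the CCAAT box.
Agpat2: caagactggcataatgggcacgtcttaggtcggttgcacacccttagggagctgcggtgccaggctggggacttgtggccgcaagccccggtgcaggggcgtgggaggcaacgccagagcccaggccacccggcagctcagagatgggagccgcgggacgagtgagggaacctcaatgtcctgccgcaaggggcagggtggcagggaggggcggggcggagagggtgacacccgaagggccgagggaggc
Mogat1: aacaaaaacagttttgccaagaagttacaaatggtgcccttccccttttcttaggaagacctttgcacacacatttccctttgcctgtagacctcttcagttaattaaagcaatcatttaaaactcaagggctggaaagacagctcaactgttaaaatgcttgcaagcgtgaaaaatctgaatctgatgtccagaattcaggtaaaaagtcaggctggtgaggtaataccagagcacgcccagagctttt
Gpam: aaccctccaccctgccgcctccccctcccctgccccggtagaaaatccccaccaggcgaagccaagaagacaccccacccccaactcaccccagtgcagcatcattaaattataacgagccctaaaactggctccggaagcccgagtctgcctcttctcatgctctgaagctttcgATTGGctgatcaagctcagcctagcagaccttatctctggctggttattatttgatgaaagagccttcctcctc

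The Agpat2 promoter was 69.2% G and C, against 41.2% for Mogat1 and 54.8% for Gpam. Neither the sterol regulatory element core TCACNCCAC nor the E-box CACGTG was found in these windows or in those of Gpat3, Agpat3, Lpin1 and a further Gpam start, on either strand. The element core occurs in 1.05% and the E-box in 6.02% of the 32851 promoter windows of this length. The CCAAT box, in 33.8% of them, was found only in the Gpam window shown, at bases −74 to −70 on the opposite strand. These letters say nothing about which factors act on the genes.

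Depth was similar across libraries, with 20425295 to 30889052 counts each. Of 10 adipocyte markers none was at 0 in any group, and they summed to 23230 to 34020 CPM in VX_SHU, 14250 to 33480 in VX_Veh, 26750 to 34030 in Sham_SHU and 25030 to 43760 in Sham_Veh, where CPM is the count relative to the scaled size of its library. Some libraries carried RNA typical of neighbouring tissue: epididymis or testis markers summed to 500 CPM or more in 6 of 16, and the 12 ciliated epithelium markers summed to 10.45 to 1075 CPM. In whole tissue, fewer cells of a type and less RNA per cell cannot be told apart.

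Mogat2 was the scarcest of the 10 transcripts and Dgat2 the most abundant. Set per kb of exon, which allows levels of different genes to be compared, Dgat2 averaged 724 CPM per kb over the 16 libraries (275 to 1247), Gpd1 365 (158.1 to 675.9) and Agpat2 313 (127.2 to 564.6). Dgat1 followed at 101.5, Gpat3 at 68.0 and Lpin1 at 52.5 CPM per kb. Mogat1 (29.3), Gpam (27.1) and Agpat3 (25.8) came next, and all neighbours in this order down to Agpat3 had overlapping ranges. Mogat2 averaged 3.19 CPM per kb, with 0.664 to 11.1 between libraries, and stayed below the lowest library of every other enzyme, 11.34 for Gpam. Its raw counts of 28 to 495 per library make it the least precisely measured of the 10.

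**Figure D1:**
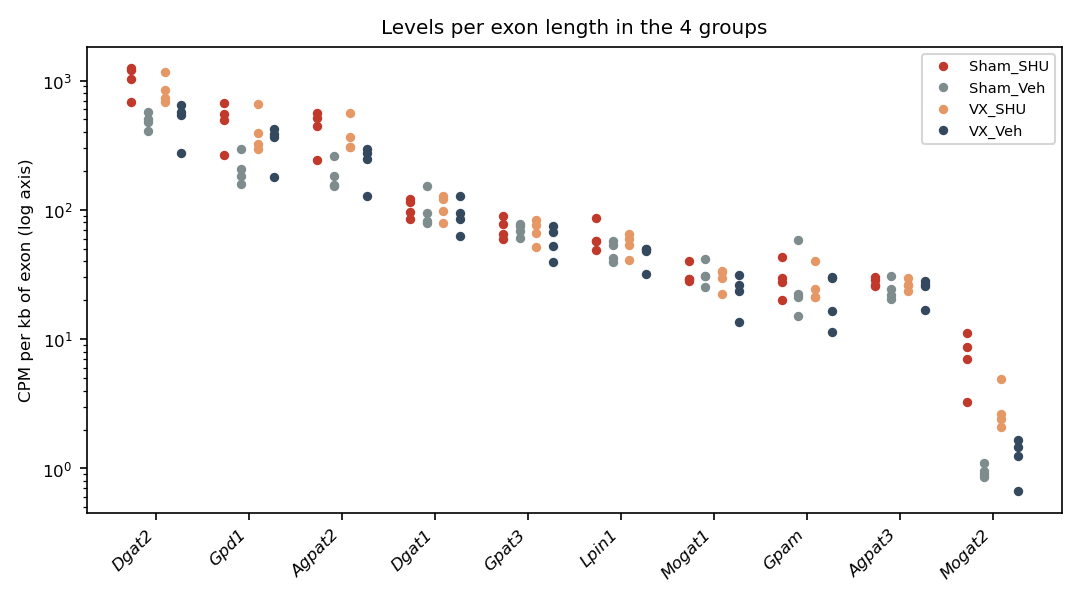
Level of each gene in CPM per kb of exon (log axis) in each of the 16 libraries, ordered by the mean; points are single libraries, coloured by group. Dgat2 stands highest and Mogat2 lowest, with a span of 0.664 to 11.1 for Mogat2.

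With the vagus intact, SHU9119 libraries held more Mogat2, Gpd1, Agpat2 and Dgat2 RNA, while the group means of the other enzymes differed less. The monoacylglycerol acyltransferase Mogat2 had 16.0, 20.4, 5.99 and 12.8 CPM in Sham_SHU libraries 1 to 4, against 1.56, 1.75, 2.02 and 1.65 CPM in Sham_Veh libraries 1 to 4. The lowest Sham_SHU value was nearly 3 times the highest Sham_Veh value, and the fitted log2 fold change was 2.98 ± 0.395 (SE), or 7.88-fold. Its relative Mogat1, which catalyses the same reaction, had 62.7, 45.2, 45.8 and 43.9 CPM in Sham_SHU and 47.7, 39.6, 65.3 and 48.1 in Sham_Veh libraries, so that these groups overlapped throughout (log2 fold change −0.02 ± 0.231).

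The last step is the acylation of diacylglycerol, carried out by the unrelated enzymes Dgat1 and Dgat2. Dgat2 had 3695, 3846, 2113 and 3194 CPM in Sham_SHU libraries 1 to 4, against 1250, 1482, 1772 and 1563 CPM in Sham_Veh libraries 1 to 4. The groups did not overlap, and the log2 fold change was 1.08 ± 0.262 (SE). Dgat1 averaged 319.6 ± 52.7 CPM in Sham_SHU and 312.8 ± 106 CPM in Sham_Veh (SD, n = 4), a log2 fold change of 0.03 ± 0.248.

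Upstream, Gpd1 makes glycerol 3-phosphate from a glycolysis intermediate. It had 1624, 2001, 785.9 and 1461 CPM in Sham_SHU libraries and 468.0, 541.3, 872.6 and 612.8 CPM in Sham_Veh libraries, and the groups overlapped through Sham_SHU3 and Sham_Veh3 (log2 fold change 1.24 ± 0.344). Agpat2, the acyltransferase that makes phosphatidic acid and whose loss causes lipodystrophy, had 1093, 1194, 516.3 and 950.8 CPM in Sham_SHU and 328.9, 323.0, 553.6 and 389.9 CPM in Sham_Veh libraries. Here too Sham_SHU3 lay below Sham_Veh3, and the log2 fold change was 1.23 ± 0.316. Agpat3, of the same enzyme family, averaged 216.4 ± 16.5 CPM in Sham_SHU against 190.7 ± 36.2 CPM in Sham_Veh (0.18 ± 0.155 on the log2 scale).

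The acyltransferases of the opening step had overlapping groups. Gpam, which sits on mitochondria, averaged 201.9 ± 64.2 CPM in Sham_SHU and 194.8 ± 131 CPM in Sham_Veh (log2 fold change 0.05 ± 0.426, and 0.64 without Sham_Veh3). Gpat3, the form of the endoplasmic reticulum, averaged 256.6 ± 47.1 and 247.1 ± 27.5 CPM in these groups (0.05 ± 0.20). Lpin1, the phosphatidic acid phosphatase that yields diacylglycerol, averaged 602.1 ± 157 CPM in Sham_SHU and 464.7 ± 83.6 CPM in Sham_Veh (0.37 ± 0.205; SD, n = 4 for each mean).

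Of all 16682 genes, 19 (0.114%) passed an adjusted p of 0.05 in this comparison by edgeR, and 1 of the 10 enzymes, Mogat2, was among them; since its value here chose it, nothing is read from this count. All 4 Sham_SHU libraries lay above all 4 Sham_Veh libraries for 2 enzymes, Mogat2 and Dgat2, and for 934 genes (5.6%). The count of enzymes called was 0 when any Sham_Veh library, Sham_SHU1, Sham_SHU2, Sham_SHU4, VX_Veh2, VX_Veh3 or VX_SHU1 was left out. It was 4 without Sham_SHU3, where 1194 of all genes were called, and 4 without VX_Veh1, where 528 were. The log2 fold change of Mogat2 stayed between 2.75 and 3.25. Ciliated markers summed to 16.5 to 186.3 CPM in Sham_SHU (median 28.6) and 10.69 to 407.9 CPM in Sham_Veh (median 378.5). Their median was thus lower with SHU9119. With their sum as a covariate the log2 fold changes were 2.59 for Mogat2, 0.84 for Dgat2, 0.90 for Agpat2 and 0.85 for Gpd1. Without the 6 libraries rich in epididymis or testis markers, which leaves 2 Sham_SHU and 2 Sham_Veh libraries, they were 3.46, 1.47, 1.82 and 1.85. Gpam was then at 1.01, Lpin1 at 0.82, Dgat1 at 0.57, Agpat3 at 0.49, Mogat1 at 0.32 and Gpat3 at 0.28. All 10 enzymes thus stood above their values in all libraries.

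**Figure D2:**
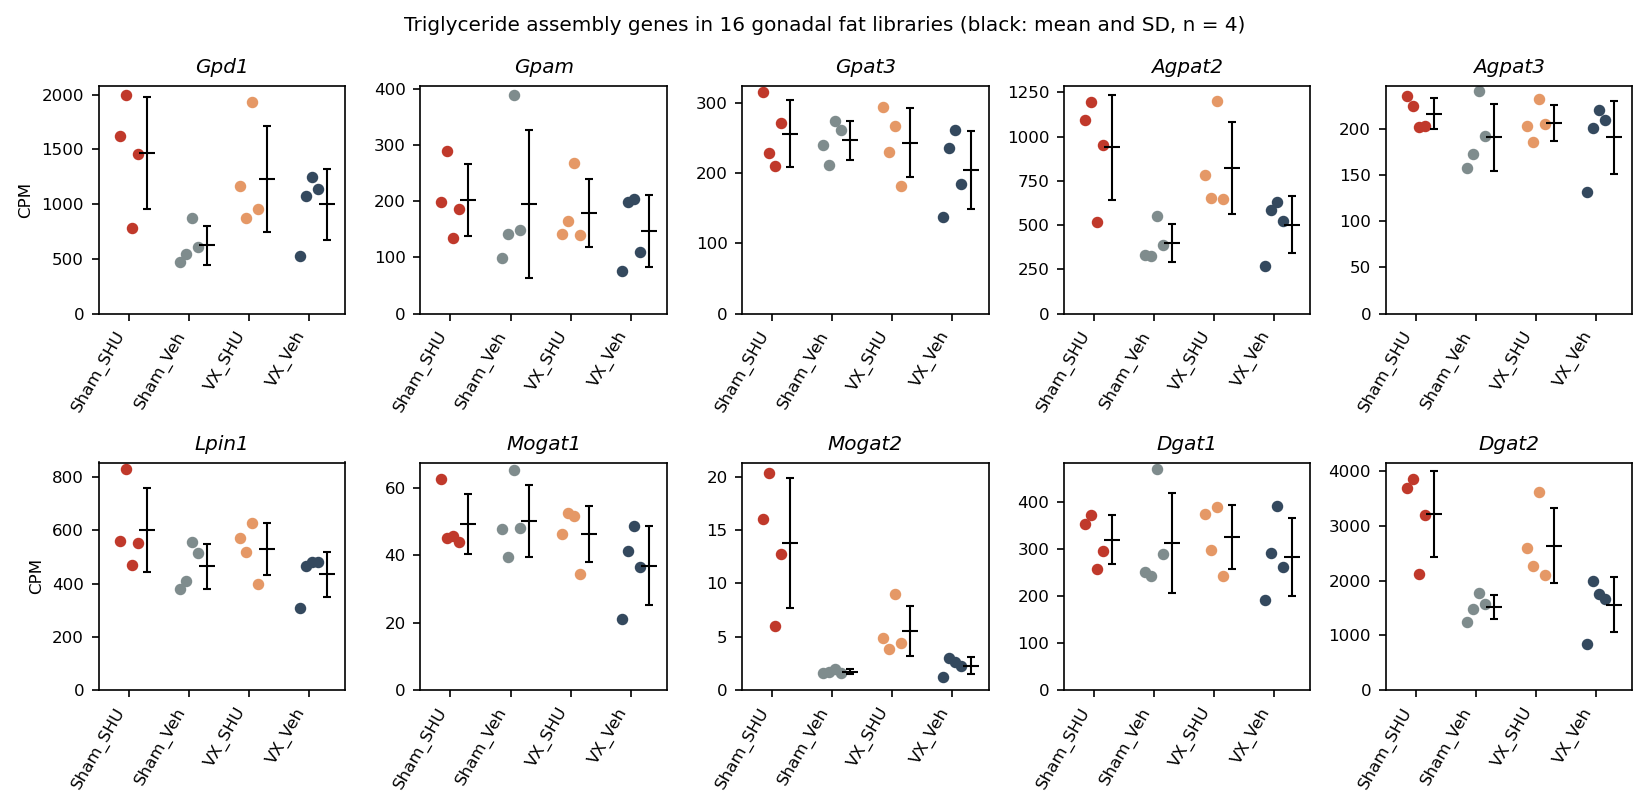
CPM of each gene in every library by group (points), with the group mean and SD in black (n = 4); each axis starts at 0. Mogat2 and Dgat2 stand higher in all Sham_SHU than in all Sham_Veh libraries, while these groups overlap for all the other genes.

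After sDVX, Mogat2, Dgat2 and Agpat2 were the 3 enzymes with all SHU9119 libraries above all vehicle libraries, but none passed the test over all genes. The result known to have drawn attention to Mogat2 and Dgat2 used only sham libraries, but the set spans all 4 groups and was chosen with earlier results of them known, so the tests after sDVX may not be fully independent of that choice. Mogat2 had 4.87, 3.85, 9.05 and 4.42 CPM in VX_SHU libraries 1 to 4, against 1.22, 3.02, 2.68 and 2.31 CPM in VX_Veh libraries 1 to 4. The difference of 1.26 ± 0.373 on the log2 scale (SE; 2.4-fold) had an adjusted p of 0.427 by the edgeR quasi-likelihood test. An exact, 2-sided permutation test of its log2 CPM alone gave p = 0.02857 (4 against 4 libraries, higher in 4 of 4). Without VX_SHU3 or without VX_Veh1 the exact permutation test for Mogat2 gave p = 0.05714. For Dgat2 and for Agpat2 the exact permutation test also gave p = 0.02857 (4 against 4 libraries). This is the smallest p these group sizes allow, and it restates that the groups did not overlap. Non-overlap was seen in 488 genes with higher and 338 genes with lower VX_SHU values.

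Dgat2 had 2587, 2266, 3607 and 2093 CPM in VX_SHU libraries, against 848, 1993, 1747 and 1659 CPM in VX_Veh libraries. Its log2 difference was 0.76 ± 0.260 (SE; edgeR adjusted p = 0.427). Agpat2 had 781.7, 655.2, 1203 and 650 CPM in VX_SHU and 271, 586.4, 630.3 and 525.7 CPM in VX_Veh libraries (0.71 ± 0.313; edgeR adjusted p = 0.427). In all 3 genes VX_SHU3 was the highest and VX_Veh1 the lowest library of its group. Without VX_SHU3 the log2 differences were 0.92 for Mogat2, 0.57 for Dgat2 and 0.47 for Agpat2, and without VX_Veh1 they were 1.06, 0.56 and 0.51.

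Gpd1, by contrast, averaged 1233 ± 485 CPM in VX_SHU and 996.6 ± 321 CPM in VX_Veh (SD, n = 4; 0.31 ± 0.339 on the log2 scale, edgeR adjusted p = 0.739), and the groups overlapped. The remaining 6 enzymes had log2 differences of 0.11 (Agpat3) to 0.33 (Mogat1), with edgeR adjusted p from 0.556 to 0.825. Over all genes 1 of 16682 (0.00599%) was called by edgeR, and 0 of the 10 enzymes, with 3 of them and 1942 genes at an unadjusted p under 0.05; DESeq2 called 47 genes and 0 enzymes. Non-overlap with higher VX_SHU values was seen in 3 of 10 enzymes and in 488 genes (2.93%). All 10 enzymes had a positive difference, with a median of 0.29, against 46.9% positive and a median of −0.02 over all genes; the enzymes vary together between libraries, so they do not count as 10 separate observations. Ciliated markers summed to 10.45 to 184.5 CPM in VX_SHU (median 24.56) and 15.37 to 1075 CPM in VX_Veh (median 272.8). Their median was again lower with SHU9119. With their sum as a covariate the log2 differences were 0.82 for Mogat2, 0.48 for Dgat2 and 0.30 for Agpat2, and that of Gpd1 turned to −0.17.

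**Figure D3:**
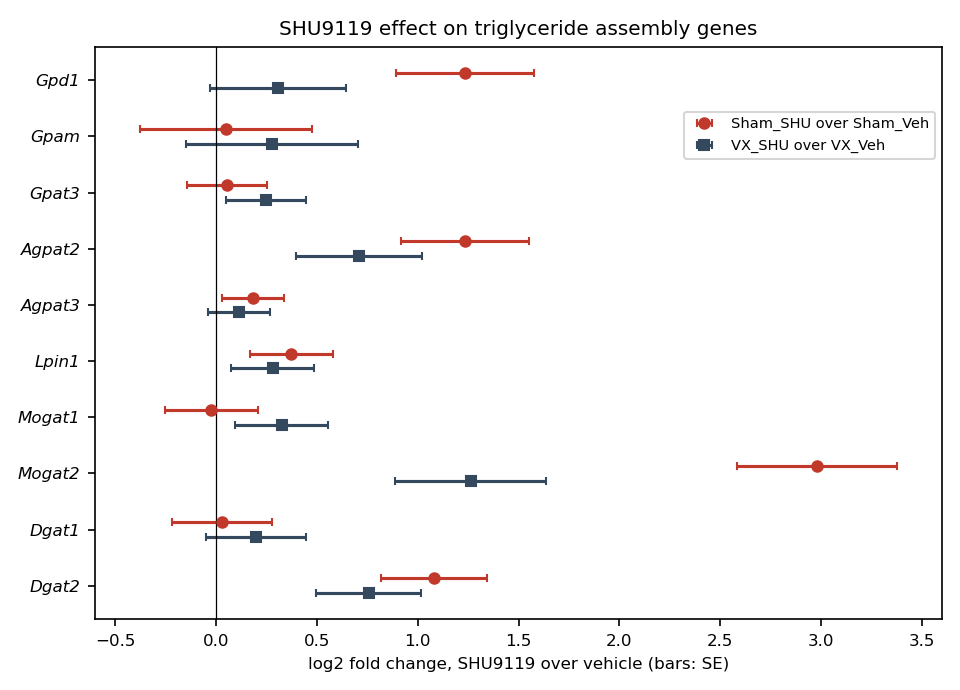
Log2 fold change of SHU9119 over vehicle (x axis, bars show the SE) for each gene after sham surgery (circles) and after sDVX (squares). Mogat2 lies at 2.98 after sham surgery and 1.26 after sDVX, with Dgat2, Agpat2 and, after sham surgery, Gpd1 next.

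The vagotomy comparisons share libraries with the one that chose Mogat2: Sham_Veh under vehicle and Sham_SHU under SHU9119. Under vehicle, the sDVX and sham libraries overlapped for all 10 enzymes. The log2 fold change of VX_Veh over Sham_Veh was 0.68 ± 0.340 (SE) for Gpd1, −0.44 ± 0.231 for Mogat1 and −0.40 ± 0.427 for Gpam, and between −0.27 and 0.40 for the other 7. Mogat2 averaged 2.31 ± 0.782 CPM in VX_Veh and 1.75 ± 0.199 CPM in Sham_Veh (SD, n = 4), with overlapping groups. By edgeR 0 of 16682 genes (0%) and 0 of 10 enzymes were called, with 1335 genes and 0 enzymes at an unadjusted p under 0.05, and DESeq2 called 8 genes and 0 enzymes.

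Under SHU9119, Mogat2 stood lower after sDVX, at 5.55 ± 2.37 CPM in VX_SHU against 13.8 ± 6.06 CPM in Sham_SHU (SD, n = 4). The groups overlapped, since VX_SHU3 at 9.05 CPM exceeded Sham_SHU3 at 5.99 CPM, and the log2 fold change was −1.31 ± 0.372 (SE). It is given without a test, because Mogat2 was chosen for its height in Sham_SHU. The other 9 enzymes differed by −0.28 (Dgat2) to 0.03 (Dgat1) on the log2 scale. By edgeR 0 of 16682 genes (0%) and 0 of 10 enzymes were called, with 1778 genes at an unadjusted p under 0.05, and DESeq2 called 93 genes and 0 enzymes.

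The fitted SHU9119 log2 fold change after sDVX minus that after sham surgery was −1.72 ± 0.524 (SE) for Mogat2, −0.93 ± 0.480 for Gpd1, −0.53 ± 0.440 for Agpat2 and −0.33 ± 0.366 for Dgat2. These differences contain the comparison that chose Mogat2 and Dgat2, and for those genes they carry no test. By edgeR 0 of 16682 genes (0%), and so 0 enzymes, passed for this difference, with 794 genes at an unadjusted p under 0.05 and 8 genes called by DESeq2. Gpd1 and Agpat2 each had an edgeR adjusted p of 0.999.

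Each of 4 steps is served by a pair of these enzymes. Mogat2 relative to Mogat1, Dgat2 relative to Dgat1 and Agpat2 relative to Agpat3 were higher in all SHU9119 than in all vehicle libraries of the same surgery, while Gpat3 relative to Gpam overlapped. In the sham groups Mogat2 and Dgat2 were already known to be higher with SHU9119, so nothing is read from the separation of their ratios there. How often other gene pairs separate these groups was not measured. The ratio of a pair within a library does not depend on how libraries are scaled to each other. Mogat2 relative to Mogat1, per kb of exon, was 0.217, 0.383, 0.111 and 0.248 in Sham_SHU libraries against 0.0278, 0.0374, 0.0263 and 0.0292 in Sham_Veh libraries. After sDVX it was 0.0891, 0.0623, 0.149 and 0.109 in VX_SHU, against 0.0492, 0.0622, 0.0467 and 0.0535 in VX_Veh libraries. VX_SHU2 and VX_Veh2 were thus practically equal, while all VX_Veh values lay above the highest Sham_Veh value of 0.0374. Mogat1 remained the more abundant transcript in every library.

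Dgat2 exceeded Dgat1 by 8.12 to 10.7 times in Sham_SHU and 3.75 to 6.04 times in Sham_Veh libraries, per kb of exon. After sDVX the ratio was 6.87 to 9.2 in VX_SHU and 4.42 to 6.78 in VX_Veh libraries, again without overlap. Agpat2 relative to Agpat3 was 9.35 to 19.5 in Sham_SHU and 6.85 to 8.4 in Sham_Veh, and 11.6 to 19 in VX_SHU and 7.51 to 10.6 in VX_Veh libraries. Gpat3 relative to Gpam was 1.5 to 3.03 in Sham_SHU and 1.34 to 4.59 in Sham_Veh, and 1.91 to 3.94 in VX_SHU and 2.26 to 3.45 in VX_Veh libraries. A ratio shows unequal change of its members and not which of them changed, and these ratios were not tested.

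**Figure D4:**
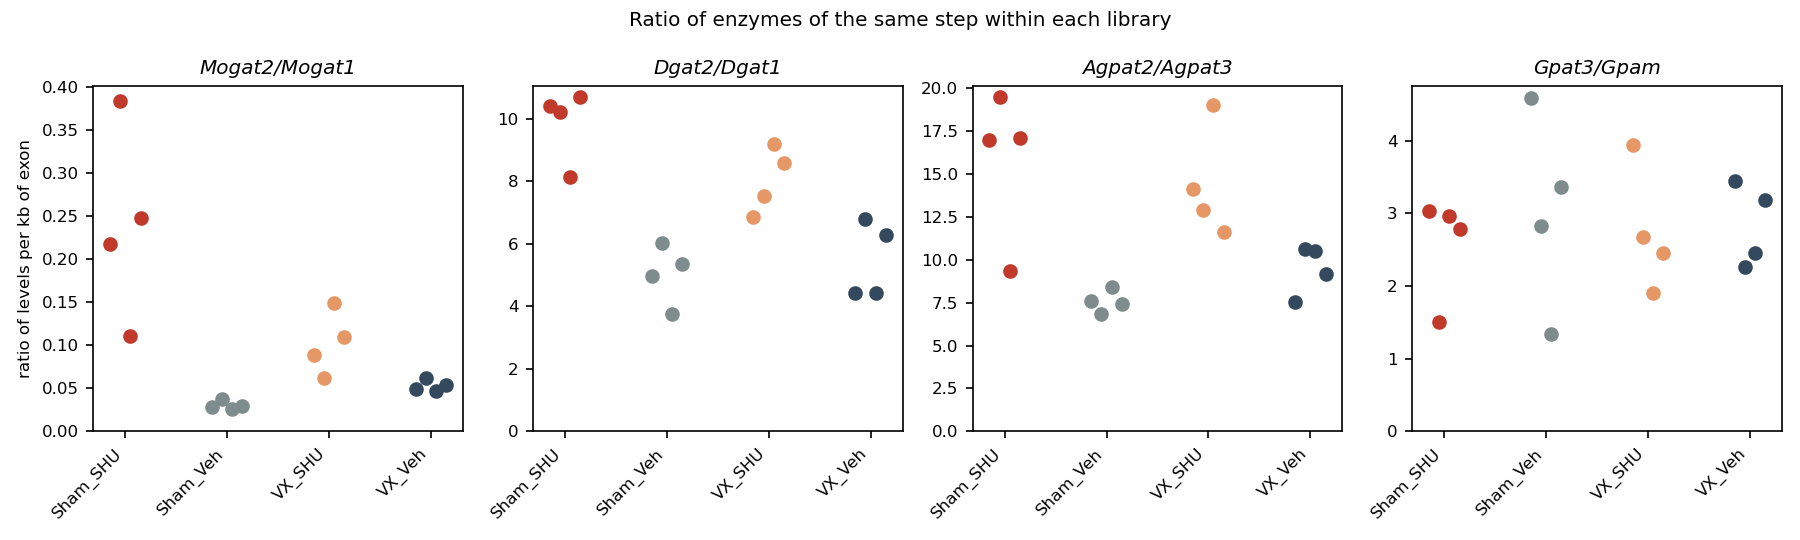
Ratio of the levels per kb of exon of enzymes that serve the same step, in each library by group (points; axes start at 0). All Sham_SHU libraries lie above all Sham_Veh libraries for every pair but Gpat3 and Gpam, a comparison in which Mogat2 and Dgat2 were already known to be higher. After sDVX the Mogat2 to Mogat1 ratio of VX_SHU2 (0.0623) is next to that of VX_Veh2 (0.0622).

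Libraries of the same group differed from each other in a shared way. With group means removed, the log2 CPM of Mogat2 followed that of Gpd1 (Pearson r = 0.939, Spearman rho = 0.935), Agpat2 (r = 0.939, rho = 0.938) and Dgat2 (r = 0.935, rho = 0.968) over the 16 libraries. Each had an adjusted permutation p of at most 0.00063 for r and rho, from 100000 permutations within groups, 2-sided and Benjamini-Hochberg adjusted over 9 relations. Lpin1 (r = 0.768), Gpam (0.734), Dgat1 (0.683) and Agpat3 (0.676) also passed, at adjusted permutation p of 0.000742 to 0.0033 for r. Gpat3 (r = 0.602, rho = 0.60; adjusted permutation p = 0.0505 and 0.0467) and Mogat1 (r = 0.523, rho = 0.509; 0.0683 and 0.0634) were the weakest.

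Sham_SHU3 and VX_Veh1, the libraries farthest from the median of Mogat2, were then left out, with the group means still taken over all 16 libraries. The remaining libraries of these groups thus kept a shared offset, so the influence of Sham_SHU3 and VX_Veh1 was not fully removed. Computed this way, r was 0.904 with Dgat2, 0.886 with Gpd1 and 0.876 with Agpat2 (adjusted permutation p = 0.00414, 0.00495 and 0.00495). It was 0.342 with Mogat1 and 0.351 with Gpat3. Such relations were common among the genes of these libraries: 166 of 16681 genes (0.995%) had r of at least 0.9 with Mogat2, and the median absolute r was 0.432. The value of Dgat2 was above that of 99.7% of genes, and that of Mogat1 above 79.8%.

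The same libraries were often the highest or lowest of their group. VX_Veh1 was the lowest of its group for 10 of 10 and Sham_Veh3 the highest of its group for 10 of 10, while Sham_SHU3 was the lowest for 9 and VX_SHU3 the highest for 8. VX_Veh3 was the highest of its group for 8 enzymes and VX_SHU4 the lowest of its group for 7. Ciliated markers stood at 1075 CPM in VX_Veh1 (15.37 to 285.6 in the other VX_Veh libraries) and 186.3 in Sham_SHU3 (16.5 to 34.02 in the other Sham_SHU libraries), against 10.69 in Sham_Veh3 (368.3 to 407.9 in the others) and 10.45 in VX_SHU3 (23.38 to 184.5 in the others). They stood at 260 CPM in VX_Veh3, above VX_Veh4 at 15.37, and at 23.38 CPM in VX_SHU4, below VX_SHU2 at 184.5. Epididymis markers summed to 10230 CPM in VX_SHU4, against 6.23 to 29.13 in the other VX_SHU libraries. Their sum was 1570 CPM in Sham_SHU3, below Sham_SHU4 at 3158, and it was 594.8 CPM in Sham_Veh3 and 13.05 CPM in VX_Veh1. Adipocyte markers summed to 14250 CPM in VX_Veh1 and 43760 CPM in Sham_Veh3, the lowest and highest of all libraries. In VX_SHU4 they summed to 23230 CPM, the lowest of its group. The part of any of these tissue markers in the order of the enzymes was not tested.

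**Figure D5:**
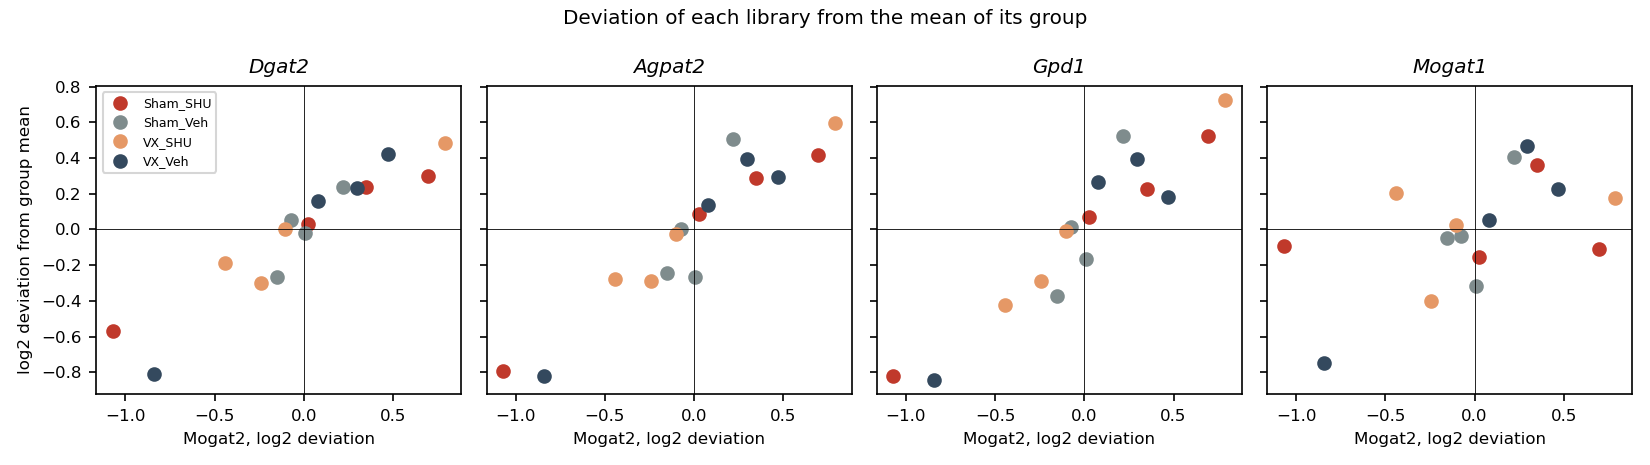
Deviation of each library from its group mean in log2 CPM, Mogat2 on the x axis and Dgat2, Agpat2, Gpd1 or Mogat1 on the y axis; each point is 1 library, coloured by group. Dgat2, Agpat2 and Gpd1 follow Mogat2 closely (r = 0.935 to 0.939) and Mogat1 more loosely (0.523).

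Because Mogat2 is an enterocyte gene, 10 enterocyte markers were measured beside it, and 0 of them were at 0 in a whole group. Their sum ranged from 13.2 to 42.86 CPM in VX_SHU, 22.86 to 121.2 in VX_Veh, 63.92 to 249 in Sham_SHU and 11.39 to 215.6 in Sham_Veh, so that in the sham groups it was higher in median with SHU9119 (81.41 against 43.43) and after sDVX lower (21 against 38.8). The group medians of 8 of the 10 markers were higher in Sham_SHU than in Sham_Veh libraries and those of 2 lower, and 4 were higher and 6 lower in VX_SHU than in VX_Veh libraries. Among those higher in Sham_SHU, the medians against Sham_Veh were 30.3 and 3.56 CPM for Fabp1, 25.9 and 5.16 for Apob, and 5.55 and 0.342 for Apoa4. In VX_SHU against VX_Veh these were 2.84 and 3.64, 3.27 and 1.96, and 0.293 and 0.454 CPM. The 2 lower in Sham_SHU were Vil1 and Rbp2. Vil1, a microvillus protein, had a median of 3.3 CPM in Sham_SHU against 15.2 CPM in Sham_Veh, and 1.83 CPM in VX_SHU against 21.4 CPM in VX_Veh. Rbp2, a retinol binding protein, had medians of 0.778 CPM in Sham_SHU against 1.76 CPM in Sham_Veh, and 0.356 CPM in VX_SHU against 2.34 CPM in VX_Veh. Vil1 and Rbp2 were highest in VX_Veh1 (83.11 and 11.05 CPM), the library with the most ciliated marker RNA (1075 CPM). They were at 1.115 and 0.1651 CPM in Sham_Veh3 (10.69 ciliated CPM), but also at 2.476 and 0.1436 CPM in Sham_Veh4 (368.3 ciliated CPM). The part of ciliated tissue in these 2 markers was not tested. Fabp2, the intestinal fatty acid binding protein, had 0.616, 21.0, 5.44 and 9.02 CPM in Sham_SHU libraries against 4.92, 1.53, 0.289 and 0.395 CPM in Sham_Veh libraries. In VX_SHU it had 0.177, 0.901, 7.98 and 0.267 CPM, and in VX_Veh libraries 0.174, 0.139, 0.106 and 1.58 CPM. Sham_SHU2 and VX_SHU3, the highest of their groups for Mogat2, were thus also the highest for Fabp2. Sham_SHU1 had 16.0 CPM of Mogat2 with 0.616 CPM of Fabp2, and Sham_Veh1 had 1.56 CPM of Mogat2 with 4.92 CPM of Fabp2. Fabp1, Apob and the hepatocyte marker Alb were highest in Sham_SHU4 (106, 106.6 and 2348 CPM), a library with 12.8 CPM of Mogat2. The part of intestinal or liver RNA in the Mogat2 values was not tested beyond these values.

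Across all 16 libraries, the 5 genes of at least 5 CPM with the pattern most like that of Mogat2 were Septin9 (Pearson r = 0.975), Ppp2r5b (0.973), Zfand2a (0.972), Insig1 (0.971) and Cald1 (0.969), out of 11694 genes searched, of which 179 reached 0.9. Insig1, which restrains cholesterol and fatty acid synthesis when sterols are plentiful, averaged 362.9 CPM in VX_SHU and 233.3 CPM in VX_Veh, and 677.3 CPM in Sham_SHU and 189.8 CPM in Sham_Veh. Most like Dgat2 were Ppp2r5a (0.981), Inpp5a (0.978), Unc119 (0.974), Mocs2 (0.974) and Dmpk (0.972), with 319 genes at 0.9 or above. These correlations describe 16 libraries that share the group differences and come with no test. Of the genes within 100 kb of Dgat2 and Mogat2, 3 others were tested. Map6, a microtubule protein gene, averaged 32.2 CPM in Sham_SHU and 15.6 CPM in Sham_Veh (log2 fold change 1.05 ± 0.329, SE), and Uvrag, an autophagy gene, 48.0 and 42.3 CPM (0.18 ± 0.0834). The noncoding Gm26705 averaged 0.80 CPM in Sham_SHU and 1.16 CPM in Sham_Veh.

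A wider set of 48 genes around triglyceride assembly was read beside the 10 enzymes, and edgeR called 0 of 48 for SHU9119 or for sDVX. The set held other enzymes of the glycerol phosphate route (14 genes), enzymes that turn diacylglycerol into phospholipid (10), genes of fatty acid uptake and activation (11), genes of lipid droplet building (8) and lipases and other hydrolases that yield or use monoacylglycerol (5). For SHU9119 after sDVX the medians of these lists were 0.04, 0.09, 0.14, 0.32 and 0.31 on the log2 scale, against −0.02 over all genes. An unadjusted p under 0.05 by edgeR was reached by 6 of 48, and by 1942 of all 16682 genes (11.6%). For SHU9119 after sham surgery the medians were −0.08, 0.14, 0.33, 0.24 and 0.16, against −0.06 over all genes. Here 12 of 48 had an unadjusted p under 0.05 by edgeR, as had 3273 of all 16682 genes (19.6%). For sDVX under vehicle the medians were 0.07, −0.04, −0.14, −0.23 and −0.16, against 0.01 over all genes. Here 21 of 48 genes were positive, and 1 of the 8 droplet genes, against 51.5% of all genes. Plin1 and Cidec of the droplet list are also adipocyte markers, whose sum was lowest in VX_Veh1 and highest in Sham_Veh3. Their part in the droplet median was not tested. For sDVX under SHU9119 the medians were −0.08, −0.115, −0.10, −0.12 and −0.10, against −0.01 over all genes.

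Among these genes the smallest p-values after sDVX belonged to Plin4, a lipid droplet coat protein, at 3468 ± 604 CPM in VX_SHU against 2348 ± 653 CPM in VX_Veh, to Pnpla3, a lipid droplet hydrolase, at 867.8 ± 171 against 546.2 ± 197 CPM, and to Agpat4, a further acyltransferase of the Agpat family, at 9.68 ± 1.67 against 14.8 ± 6.61 CPM (SD, n = 4). The edgeR adjusted p was 0.427 for each, with log2 differences of 0.56 ± 0.197, 0.67 ± 0.235 and −0.61 ± 0.259 (SE). After sham surgery they were Selenoi, which makes phosphatidylethanolamine (0.33 ± 0.0705; adjusted p = 0.0687 by edgeR), Pcyt1a, which controls phosphatidylcholine synthesis (0.34 ± 0.099; 0.103), and Agpat5 (0.27 ± 0.0874; 0.138). For sDVX under vehicle they were Cidea, a droplet protein, at 10.4 ± 6.16 CPM in VX_Veh against 5.36 ± 2.13 CPM in Sham_Veh, Plpp3, a lipid phosphatase, at 262.9 ± 13.5 against 344 ± 42.5 CPM, and Acsl6 at 0.365 ± 0.156 against 4.23 ± 7.36 CPM, each with an edgeR adjusted p of 0.608. For sDVX under SHU9119 they were Selenoi (−0.22 ± 0.0705; edgeR adjusted p = 0.441), Pcyt1a (−0.20 ± 0.0989; 0.475) and Acsl6 (−2.88 ± 1.48; 0.477). Acsl6 was scarce, at 0.218 ± 0.170 CPM in VX_SHU against 1.66 ± 2.89 CPM in Sham_SHU (SD, n = 4), where its SD exceeded its mean.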

How the data were processed

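PolyA RNA of 16 gonadal fat libraries was measured as raw counts per gene, deposited by the authors with NCBI gene numbers; the mm10 build and the tools bcl2fastq, TopHat and edgeR carry no version, per the submitters' processing notes. For counting, neither tool nor strand is given in the sources used here. RefSeq (GRCm38.p6) gave symbols for 24374 of 24454 gene numbers, and GENCODE M21 gave exon lengths.

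In R 4.3.3, edgeR 4.0.16 kept 16682 genes (filterByExpr), with TMM scaling, 1 mean per group in 1 quasi-likelihood fit and Benjamini-Hochberg adjusted p under 0.05 over all genes; the SE was taken as the size of the log2 fold change divided by the square root of F. A prior count of 2 went into log2 CPM. Python 3.11.15 and scipy 1.17.1 ran permutation tests. The pipeline was tested on simulated data. Replicates differed beyond sampling noise (chi-square per degree of freedom from 11.8). All members and the genes with the 3 smallest p of the wider set per comparison were named. Members and lists were chosen with earlier results of these data known. Alternatives were DESeq2 size factors, no filter, the DESeq2 1.42.0 Wald test, a replicate block, a ciliated marker covariate, fits without 6 marker-rich libraries and leaving out each library.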

Additional observations from a re-analysis of the deposited data

Results flagged for a closer look

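In 3 of 40 sets of 4 libraries (10 enzymes in 4 groups), 1 library stood far from the other 3 relative to the range of the set, where chance gives about 1 in 20. Gpam was at 388.8 CPM in Sham_Veh3, against 99.81 to 148.4 CPM in the other Sham_Veh libraries. Lpin1 was at 309.5 CPM in VX_Veh1, against 466.8 to 482.2 CPM in the other VX_Veh libraries. Mogat1 was at 62.67 CPM in Sham_SHU1, against 43.9 to 45.77 CPM in the other Sham_SHU libraries.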

How the results depend on the processing

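Of 968 refitted log2 fold changes of the enzymes (44 values, 22 alternatives), 922 kept their direction and side of the threshold or, where untested, moved by less than 1 SD between replicates. A further 40, of 14 values, turned, all of values that had not passed. Changes of sign in the untested comparison, SHU9119 after sham surgery, are not counted among these 40. The numbers of genes and of enzymes called for SHU9119 after sham surgery (19 and 1) were 1178 and 4 by DESeq2, 0 and 0 with the replicate block, without the 6 marker-rich libraries or with the ciliated covariate, and 0 to 1194 and 0 to 4 with 1 library left out (1194 genes without Sham_SHU3, 528 without VX_Veh1 and 178 without VX_SHU3). For SHU9119 after sDVX (1 gene) 47 genes were called by DESeq2, 0 under each of the other alternatives and 0 to 1 with 1 library left out; for sDVX under vehicle, sDVX under SHU9119 and the interaction (0 each) DESeq2 called 8, 93 and 8, and 0 to 1, 0 to 1 and 0 were called with 1 library left out. The cause was not tested. Same-numbered libraries deviated from their group means with r of −0.689 to 0.676 (median 0.18), over 0.1 in 13 of 24 pairs. Pairs with different numbers had r of −0.765 to 0.726. Of 16 libraries, 5 were closest to their own number. Epididymis markers summed to 502.1, 3158, 9564 and 10230 CPM in Sham_Veh4, Sham_SHU4, VX_Veh4 and VX_SHU4. They summed to 594.8 and 1570 CPM in Sham_Veh3 and Sham_SHU3, and to at most 59.63 CPM elsewhere. Whether the replicate numbers mark a shared batch was not tested. The Mogat2 difference of mean log2 CPM after sDVX (1.23) was 0.961 to 1.38 with 1 library left out.

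Turned with the ciliated covariate after sDVX: Gpd1 (−0.172), Gpam (−0.233), Agpat3 (−0.081) and Dgat1 (−0.0748). For SHU9119 after sham surgery, the signs of Gpam (−0.192), Gpat3 (−0.0435) and Dgat1 (−0.149) also changed with this covariate. Mogat1 there was 0.00196 without the filter and 0.32 without the marker-rich libraries. Turned for sDVX under vehicle without the marker-rich libraries: Gpam (0.409), Agpat3 (0.17), Lpin1 (0.099) and Dgat1 (0.248). Agpat3 there was 0.021 without the filter and 0.0239 with the covariate. For sDVX under SHU9119, Dgat1 was −0.00973 with the replicate block and −0.0119 without the marker-rich libraries. With 1 library left out the ranges that crossed 0 were, for SHU9119 after sham surgery, Gpam −0.155 to 0.636, Gpat3 −0.0579 to 0.163, Mogat1 −0.157 to 0.132 and Dgat1 −0.0518 to 0.296; for SHU9119 after sDVX, Agpat3 −0.017 to 0.19; for sDVX under vehicle, Gpam −0.61 to 0.18, Agpat3 −0.0755 to 0.165, Lpin1 −0.176 to 0.0612, Dgat1 −0.336 to 0.122 and Dgat2 −0.0955 to 0.27; and for sDVX under SHU9119, Gpam −0.438 to 0.0454, Gpat3 −0.179 to 0.0527, Lpin1 −0.28 to 0.00509, Mogat1 −0.16 to 0.0558 and Dgat1 −0.071 to 0.145. Depth limits Mogat2 most, with 28 counts in its lowest library.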
